A study of Bos taurus with 6 samples.

Results

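Cells keep hydrogen peroxide, lipid peroxides and superoxide low with enzymes that draw on glutathione, a small thiol peptide, and on thioredoxin, a small thiol protein. Glutamate-cysteine ligase makes the first bond of glutathione, glutathione reductase and thioredoxin reductase recharge both thiols with NADPH, and peroxidases and peroxiredoxins spend them. Several of the genes are targets of the transcription factor NRF2 (NFE2L2), which its partner KEAP1 marks for degradation until electrophiles or oxidants release it. Glutathione peroxidases 1 and 4 and thioredoxin reductase 1 carry selenocysteine in their active sites.

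The 10 genes described here are GCLC, GCLM, GSR, GPX1, GPX4, TXNRD1, PRDX1, HMOX1, NQO1 and SOD1. They were taken by name, and all 10 were found by symbol in the deposited expression table and by Entrez identifier among the 19163 genes of the deposited count table. All 10 also passed the filter on low counts, which left 13001 genes.

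The RNA came from F7, a single line of bovine embryonic stem cells set up from in vitro fertilized Holstein Friesian embryos. In one group F7 grew on mouse embryonic fibroblasts (MEFs) that mitomycin C had stopped from dividing but left alive (MC-F7, labelled 1M by the submitters). In the other it grew on MEFs that methanol had fixed and killed (MT-F7). Each group had 3 libraries, the design text gives 15 passages for both, and the medium of both held recombinant FGF and the Wnt inhibitor IWR1. Both cultures were dissociated and left on gelatin for 25 minutes, and the floating cells were collected. The medium of MC-F7 was changed daily and that of MT-F7 every other day, so the kind of feeder and the feeding interval cannot be told apart. The sources used here do not tell for these libraries whether each stands for its own culture, and the study's general statement on statistics speaks of technical replicates. The p-values therefore measure the spread between these libraries, which may be technical.

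The libraries held 21958386 to 24933430 counts on genes. A count of 3, taken as the smallest amount detected, was 0.120 to 0.137 counts per 1000000 (CPM), and this limit covers counting error only. Genes of the mitochondrial genome took 16.3% to 28.3% of the counts, most of all in replicate 3 of both groups (28.3% in MC-F7 and 27.9% in MT-F7). Of the 7 pluripotency markers in the count table, 6 were lower in MT-F7, beside 11.3% lower over all tested genes. The other, SALL4, was not called (log2 fold change 0.33). SOX2, LIN28B and TDGF1 were not found in that table by symbol. The summed level of the 7 was 1364 to 2153 CPM in MC-F7 and 720 to 807 CPM in MT-F7. POU5F1 supplied most of this sum, with means of 1196 CPM in MC-F7 and 522 CPM in MT-F7. POU5F1 and NANOG, which define pluripotent cells, were present in every library. NANOG had means of 43.5 CPM in MC-F7 and 10.7 CPM in MT-F7 (log2 fold change -2.02, edgeR adjusted p = 1.1e-05). Of 15 tested fibroblast markers 6 were higher and 1 was lower in MT-F7, beside 11.9% higher and 11.3% lower over all tested genes. The sum over all 16 was 436 to 512 CPM in MC-F7 and 885 to 952 CPM in MT-F7. ACTA2 had the largest part in this rise, with means of 85.3 CPM in MC-F7 and 309 CPM in MT-F7. The lower gene was TWIST2 (log2 fold change -2.15), and 8 markers were not called, among them COL1A1, COL1A2, DCN, LUM and PDGFRA. None of the 16 was at 0 in all libraries, but FAP, with 0, 9 and 7 counts in MC-F7, was at 0 throughout MT-F7. Fewer cells of a type and less RNA per cell cannot be told apart in such bulk samples. The part of these marker changes in the results below was not tested. The study reports that a smaller share of reads aligned to the bovine genome in MC-F7 than in MT-F7. It proposes that fixed feeders left less feeder cell contamination. From higher transcripts of matrix and growth factor genes in MT-F7, it also proposes that some of these stem cells had become feeder-like cells. Mouse reads that align to bovine genes cannot be told apart from bovine reads here, and their part in the results below was not tested.

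Of the 10 antioxidant genes, 5 were lower in MT-F7 and none was higher at an adjusted p under 0.05 in edgeR's quasi-likelihood test. The lower genes were HMOX1, GCLC, TXNRD1, GSR and PRDX1. Among all tested genes 11.3% were lower and 11.9% were higher by the same rule, and 23.2% were called in either direction. With the replicate number as a block 5 of the 10 were again lower, while 17.7% of all tested genes were lower and 36% were called in either direction. In 6 of the 10, the same 5 and GCLM, every MT-F7 library lay below every MC-F7 library, which held for 20.1% of all tested genes. None of the 10 had every MT-F7 library above, which held for 19.9%, so 6 of 10 did not overlap in either direction, beside 40% of all tested genes. The median log2 fold change of the 10 was -0.49, beside -0.0026 over all tested genes. In DESeq2 5 of the 10 were likewise lower, and without replicate 3 of both groups it was again 5. In limma fits of the deposited TPM the number was 2 or 3, and it lay between 3 and 5 when 1 library was left out. It was 3 without MC-F7 replicate 1, without MC-F7 replicate 2 and without MT-F7 replicate 2. At an unadjusted p under 0.05 none of the 10 was higher either.

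**Figure D1:**
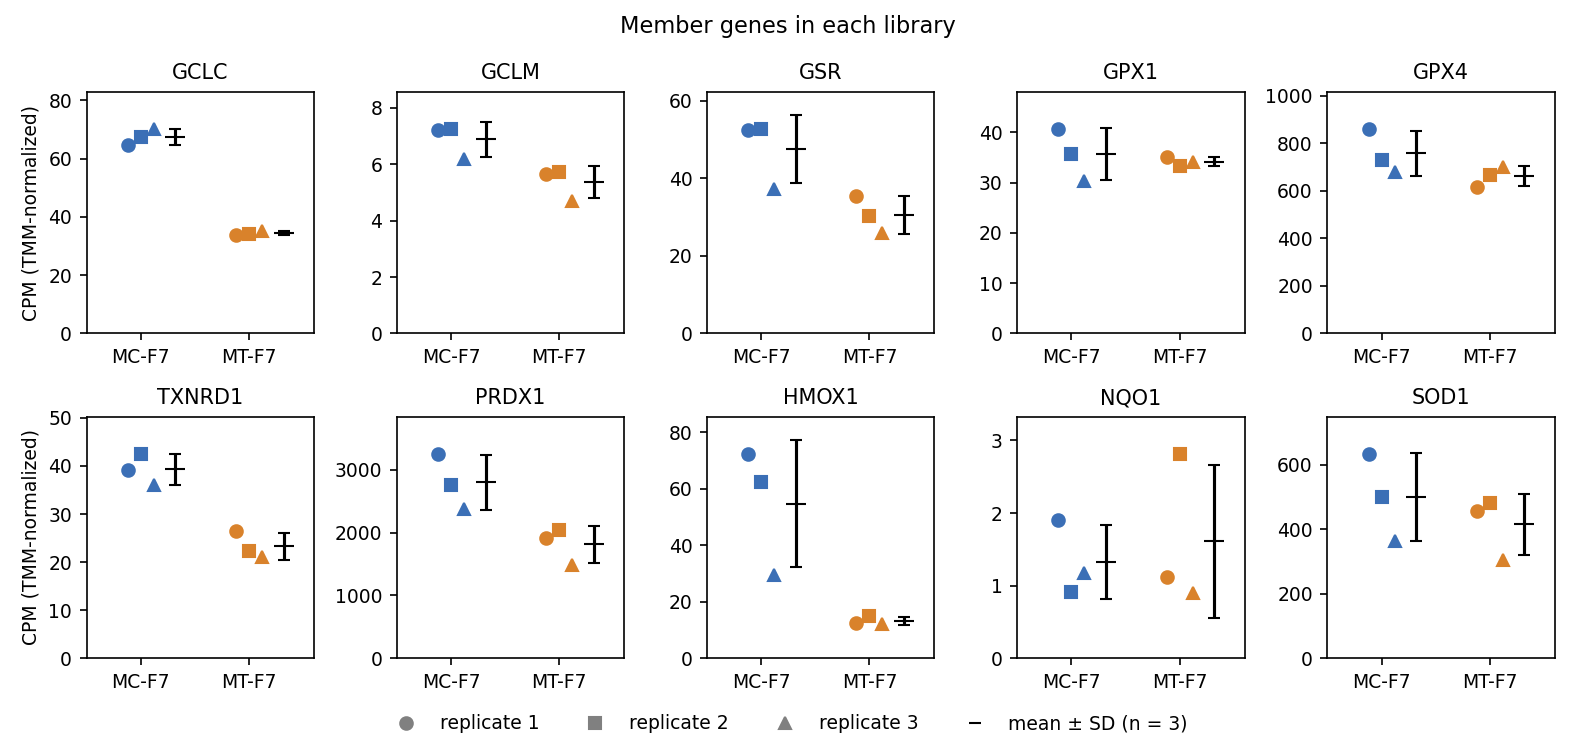
Level of each of the 10 genes in each library, in TMM-normalized CPM on axes that start at 0, with circles, squares and triangles for replicates 1, 2 and 3 and a bar for the mean ± SD (n = 3). GCLC, GSR, TXNRD1, PRDX1, HMOX1 and GCLM do not overlap between the groups, while GPX1, GPX4, NQO1 and SOD1 do.

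Glutamate-cysteine ligase is made of a catalytic subunit, encoded by GCLC, and a modifier subunit, encoded by GCLM, which raises its affinity for substrate. GCLC (Entrez gene 512468) was at 64.8, 67.5 and 70.2 CPM in the MC-F7 libraries and at 33.9, 34.2 and 35.3 CPM in the MT-F7 libraries. The libraries of a group lay close together and the groups were far apart. GCLC fell by 48.9% in MT-F7 (95% interval -58.6% to -36.9%), a log2 fold change of -0.97 (standard error 0.140, edgeR adjusted p = 0.00033). This call was kept under all 18 alternative settings. GCLM (525659) was expressed at a low level, with 7.21, 7.25 and 6.17 CPM in MC-F7 and 5.66, 5.72 and 4.71 CPM in MT-F7. These values did not overlap, but the log2 fold change of -0.36 had a 95% interval from -0.80 to 0.085 and an edgeR adjusted p of 0.23, so neither no change nor a fall of 42.7% lies outside it.

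The ratio of GCLC to GCLM, which does not depend on library scaling, was 8.99, 9.30 and 11.4 in the MC-F7 libraries, against 5.99, 5.99 and 7.50 in those of MT-F7. It is a ratio of CPM, not corrected for gene length, so only its change can be read. All MT-F7 ratios lay below all MC-F7 ratios, by 0.61 on the log2 scale. The two-sided exact permutation p was 0.10, the smallest that 3 libraries against 3 can give, and 0.15 after adjustment over the 3 ratios examined. The ratio of GPX1 to GPX4 was higher in MT-F7 by 0.14 on the log2 scale (exact p = 0.20), and that of SOD2, the mitochondrial superoxide dismutase, to SOD1 by 0.15 (exact p = 0.10). Adjusted over the 3 ratios, these exact p-values were 0.20 and 0.15.

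Glutathione reductase, encoded by GSR (506406), returns oxidized glutathione to its reduced form. Its level was 52.5, 52.8 and 37.4 CPM in MC-F7 and 35.5, 30.2 and 25.9 CPM in MT-F7. The groups did not overlap, but MC-F7 replicate 3 came close to MT-F7 replicate 1. GSR fell by 35.7% (95% interval -51.1% to -15.4%). On the log2 scale the change was -0.64 (standard error 0.183, edgeR adjusted p = 0.023). The call was lost without MC-F7 replicate 1, without MC-F7 replicate 2 or without MT-F7 replicate 2 (adjusted p = 0.072, 0.12 and 0.072), and in each limma fit of the TPM values (adjusted p from 0.13 to 0.21).

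The glutathione peroxidases did not pass the test. GPX1 (281209) reduces hydrogen peroxide and small peroxides in the cytosol and mitochondria. It was at 40.7, 35.7 and 30.3 CPM in MC-F7 and 35.1, 33.4 and 34.1 CPM in MT-F7. The MT-F7 values lay inside the range of MC-F7, and the log2 fold change of -0.06 (95% interval -0.40 to 0.28, edgeR adjusted p = 0.82) was above 0 in the limma fits of TPM and without MC-F7 replicate 1. GPX4 (286809), which reduces phospholipid peroxides within membranes and so holds back ferroptosis, was at 862, 731 and 681 CPM in MC-F7 and 617, 669 and 702 CPM in MT-F7. These groups overlapped too. Its log2 fold change was -0.19, and the 95% interval of -31.1% to 11.1% limits the difference on either side (edgeR adjusted p = 0.42).

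TXNRD1 (282388), the cytosolic thioredoxin reductase, was at 39.1, 42.6 and 36.1 CPM in MC-F7 and at 26.4, 22.2 and 21.1 CPM in MT-F7. Every MT-F7 library lay well below the lowest MC-F7 library. It fell by 40.8% (95% interval -53.3% to -24.9%), a log2 fold change of -0.76 (standard error 0.158, edgeR adjusted p = 0.0043), and passed in all 6 fits that left out 1 library. The limma tests on log2(TPM + 1) and log2(TPM + 0.1) gave adjusted p of 0.063 and 0.055. PRDX1 (281997), a peroxiredoxin that thioredoxin recharges, was per length the most abundant of the 10 genes. It was at 3258, 2754 and 2382 CPM in MC-F7 and at 1918, 2046 and 1478 CPM in MT-F7, with no overlap. PRDX1 fell by 35.2% (95% interval -51.5% to -13.4%), a change of -0.63 on the log2 scale (standard error 0.193, edgeR adjusted p = 0.033). This was the weakest of the 5 calls, since it passed in 1 of the 6 fits with a library left out, the one without MC-F7 replicate 3 (adjusted p = 0.013), and had adjusted p from 0.051 to 0.10 in the other 5. The limma fits of TPM gave 0.18 to 0.25. As a highly expressed gene whose family holds close relatives, PRDX1 could also share reads with near-identical copies, which was not tested.

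HMOX1 (513221) encodes heme oxygenase 1, which opens heme into biliverdin, iron and carbon monoxide and is induced by many stresses. It had the largest difference of the 10. Its level was 72.4, 62.4 and 29.4 CPM in MC-F7 and 12.5, 14.9 and 12.1 CPM in MT-F7. The MT-F7 libraries were alike, MC-F7 replicate 3 was lower than the other MC-F7 libraries, and even that library lay above all of MT-F7. HMOX1 was 4.15-fold lower in MT-F7, and its log2 fold change was -2.05 (95% interval -2.65 to -1.46, standard error 0.274, edgeR adjusted p = 0.00018). It passed under all 18 alternatives, and its log2 fold change was -2.36 without MC-F7 replicate 3 and -1.80 without MC-F7 replicate 1. HMOX1 also stands on the list of HIF-1 pathway genes that the study drew from these same libraries, so that list is not independent evidence of its direction. Of all tested genes, 1.43% had a lower log2 fold change. Macrophages break down heme and are rich in HMOX1. The summed level of 9 erythroid and macrophage markers was 2.48 to 4.49 CPM in MC-F7 and 4.02 to 5.14 CPM in MT-F7. CD68 supplied most of this sum, with means of 2.79 CPM in MC-F7 and 3.18 CPM in MT-F7. LYZ had means of 0.325 CPM in MC-F7 and 0.929 CPM in MT-F7. HBB was at 0 in every library, and PTPRC, CD14 and CSF1R were at 0 to 10 counts. The part of such cells in the HMOX1 difference was not tested.

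Across the 6 libraries, the genes whose log2(CPM + 1) followed that of HMOX1 most closely, out of 11930 genes whose mean reached 1 CPM, were YARS1, CELF6, POU5F1, HRH3 and ENDOG (Pearson's r from 0.993 to 0.999). The 6 points fall into the same 2 groups for every gene, and many genes differ between the groups. POU5F1, the core pluripotency factor OCT4, was at 1456, 1305 and 825 CPM in MC-F7 and 557, 524 and 486 CPM in MT-F7. As with HMOX1, MC-F7 replicate 3 was the lowest of its group and lay above all of MT-F7. Picking genes by their correlation with HMOX1 selects for such a pattern, and a link between the genes was not tested.

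NQO1 (519632) encodes a quinone reductase that is often used as a readout of NRF2. It was barely expressed: the MC-F7 libraries held 43, 22 and 25 counts of it, and the MT-F7 libraries 28, 73 and 21. MT-F7 replicate 2 alone stood high. The log2 fold change of 0.28 had a 95% interval from -0.75 to 1.31 (edgeR adjusted p = 0.71) and turned to -0.40 without that library. The interval includes no change as well as a fall of 40.4%.

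SOD1 (281495), the copper-zinc enzyme that turns superoxide into hydrogen peroxide in the cytosol, was at 634, 499.8 and 364 CPM in MC-F7 and at 456, 482 and 305 CPM in MT-F7. The groups overlapped widely. Its log2 fold change was -0.27 (95% interval -0.75 to 0.21, edgeR adjusted p = 0.42). Replicate 3 was the lowest library of both groups for SOD1, and likewise for PRDX1, GSR, TXNRD1, GCLM and HMOX1, so for 6 of the 10 genes, against 25.8% of all tested genes. GCLC was highest in replicate 3 of both groups. The high mitochondrial share of these 2 libraries moved with this pattern, and its part in it was not tested.

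**Figure D2:**
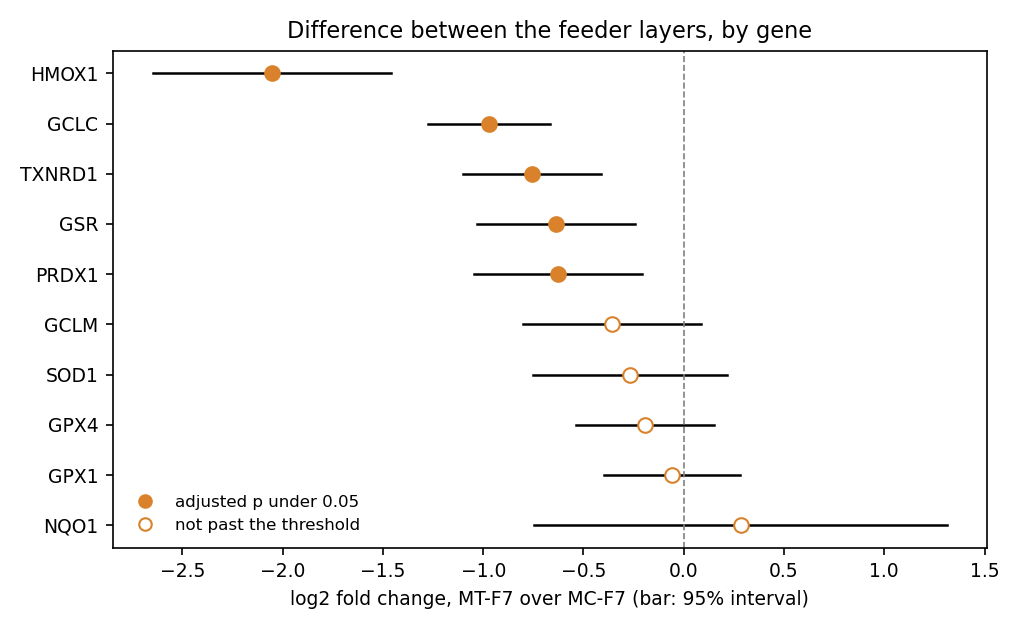
Log2 fold change of MT-F7 over MC-F7 for each gene, with 95% intervals from edgeR's quasi-likelihood test; filled points had an adjusted p under 0.05. HMOX1 stands lowest at -2.05, GCLC, TXNRD1, GSR and PRDX1 follow, and the intervals of the other 5 genes include 0.

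**Figure D3:**
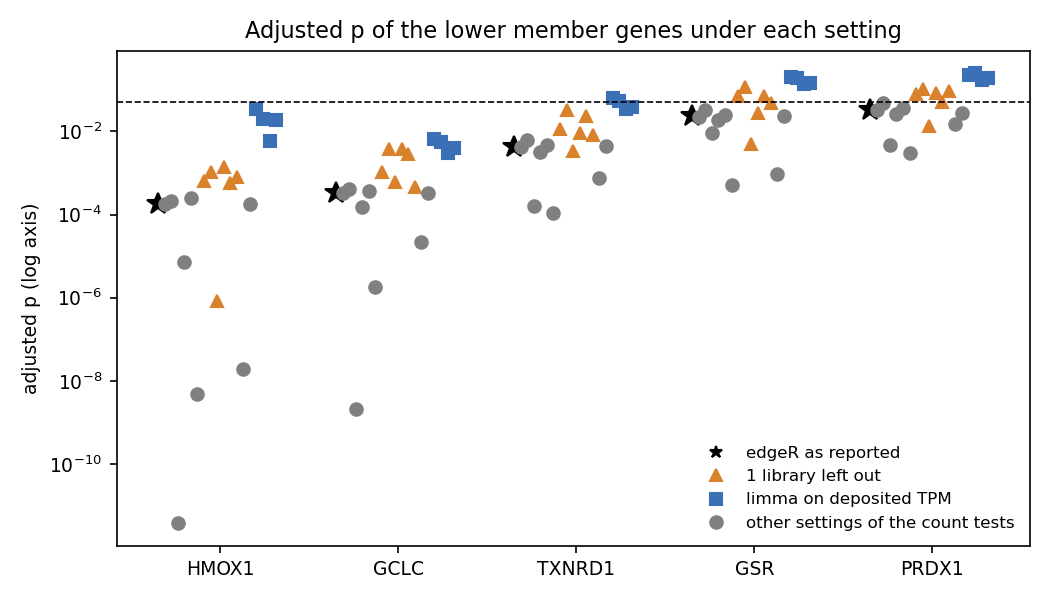
Adjusted p, on a log axis, of the 5 lower genes as reported (star) and under each alternative; the dashed line is 0.05. HMOX1 and GCLC stay under the line throughout, and TXNRD1 lies above it in 2 limma fits. GSR and PRDX1 lie above it in all 4 limma fits and in 3 and 5 of the fits without 1 library.

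Levels of different genes were compared only per length, on the deposited TPM values after each library was rescaled to 1000000. On this scale PRDX1 stood first in MC-F7 with 2196 ± 369 (SD, n = 3), followed by GPX4 with 1073 ± 140 and SOD1 with 656 ± 184. GPX1 was far below GPX4, at 48.4 ± 7.76. HMOX1 (28.8 ± 12.2), GSR (26.5 ± 5.66) and GCLC (22.8 ± 1.02) came next, and neighbours among these 3 overlapped between libraries. TXNRD1 was at 14.6 ± 1.77, GCLM at 5.61 ± 0.678 and NQO1 at 1.11 ± 0.418. The order in MT-F7 was the same for the 4 most abundant genes, with PRDX1 at 1512 ± 311, GPX4 at 991 ± 54.6, SOD1 at 579 ± 155 and GPX1 at 49.0 ± 2.30. HMOX1 moved from place 5 in MC-F7 to place 8 in MT-F7, where it was at 7.32 ± 1.13 and overlapped with TXNRD1 at 9.12 ± 1.28. GSR (18.0 ± 3.32) and GCLC (12.3 ± 0.372) lay above these, and GCLM (4.63 ± 0.680) and NQO1 (1.45 on average) below. Apart from the overlaps named, each gene lay above the next in every library of its group.

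**Figure D4:**
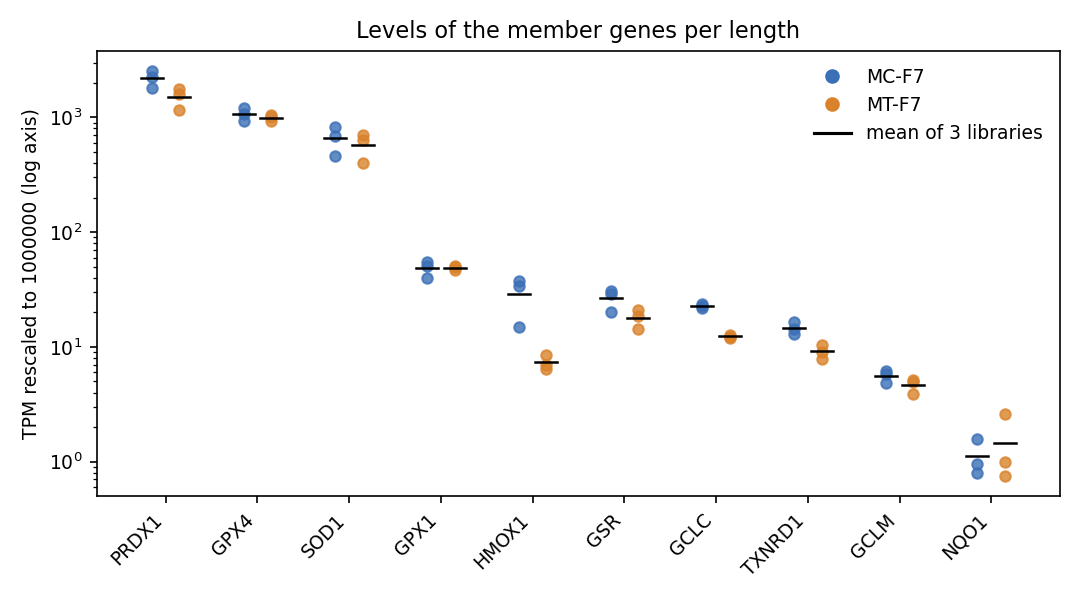
Levels of the 10 genes per length, as deposited TPM rescaled to 1000000 in each library, on a log axis; each point is a library and each bar the mean of 3. PRDX1, GPX4 and SOD1 lie far above the other 7, and the mean of HMOX1 is 28.8 for MC-F7 but 7.32 for MT-F7.

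The neighbouring genes of these pathways were taken from 7 lists with 150 genes in all, of which 138 were in the count table and 123 were tested. Of the 123, 25 were lower and 8 were higher in MT-F7, beside 11.3% lower and 11.9% higher over all tested genes. Their median log2 fold change was -0.11. With the replicate number as a block 32 were lower and 15 higher, beside 17.7% lower and 18.3% higher over all tested genes.

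Among 13 tested genes of glutathione synthesis and turnover, 4 were lower and 1 was higher, beside 11.3% lower and 11.9% higher over all tested genes. CBS, which starts the route from homocysteine to cysteine, was at 85.5 ± 5.60 CPM in MC-F7 and 44.4 ± 3.86 CPM in MT-F7 (log2 fold change -0.95, edgeR adjusted p = 0.00054). SLC3A2, the shared heavy chain of several amino acid transporters, had a log2 fold change of -0.77. GGT5 and CHAC1, which cleave glutathione outside and inside the cell, had log2 fold changes of -1.10 and -1.27. ANPEP, a surface peptidase that splits the cysteinylglycine left from glutathione, rose with a log2 fold change of 0.83. GSS, which adds glycine in the last step of synthesis, did not pass, with means of 7.68 CPM in MC-F7 and 10.3 CPM in MT-F7 (log2 fold change 0.42, standard error 0.188, edgeR adjusted p = 0.13). SLC7A11, the cystine carrier that pairs with SLC3A2, was nearly silent: its counts were 6, 7 and 0 for MC-F7, then 1, 0 and 4 for MT-F7, too few to be tested.

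Of 25 tested enzymes that use glutathione, 3 were lower and 2 higher, beside 11.3% lower and 11.9% higher over all tested genes. PTGES, a prostaglandin E synthase, was at 11.8, 12.9 and 8.23 CPM in the MC-F7 libraries and at 0.956, 0.657 and 0.637 CPM in those of MT-F7 (log2 fold change -3.86, edgeR adjusted p = 2.0e-06). GSTA3, a glutathione S-transferase, fell from 29.5 ± 2.25 to 3.65 ± 0.909 CPM, or by 3.01 on the log2 scale. GSTP1 had a log2 fold change of -1.55, and both transferases belong to families whose close copies may split reads. GLRX, a glutaredoxin that removes glutathione from proteins, rose from 14.4 ± 2.14 to 29.2 ± 6.71 CPM, and GPX7, a peroxidase of the endoplasmic reticulum, rose with a log2 fold change of 0.62 and passed in 2 of the 6 fits without 1 library.

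In the thioredoxin and peroxiredoxin list, 3 of 20 tested genes were lower and 3 were higher, beside 11.3% lower and 11.9% higher over all tested genes. TXN itself was at 325 ± 58.3 CPM in MC-F7 and 297 ± 43.7 CPM in MT-F7 and did not pass (log2 fold change -0.13, edgeR adjusted p = 0.64). TXNIP, which binds and blocks thioredoxin, fell from 51.0 ± 3.89 to 26.4 ± 7.70 CPM (log2 fold change -0.95, edgeR adjusted p = 0.0040), and missed the threshold in 2 of the 4 limma fits. Among the other peroxiredoxins PRDX4, that of the endoplasmic reticulum, was lower by 50.1% (edgeR adjusted p = 0.010), although MT-F7 replicate 1 lay above MC-F7 replicate 3, and the call was lost without MC-F7 replicate 2 and in the 4 limma fits. PRDX2, PRDX3, PRDX5 and PRDX6 had log2 fold changes of 0.19, 0.33, -0.24 and -0.20 and none passed. Of the sestrins, stress proteins that slow growth signalling, SESN1 was lower (-0.62) and SESN2 and SESN3 were higher (0.51 and 2.05). SESN1 and SESN2 each passed in 1 of the 6 fits without 1 library. SESN3 was at a low level, with 0.575, 0.580 and 0.187 CPM in MC-F7 and 2.07, 1.85 and 1.74 CPM in MT-F7. MSRB3, which repairs oxidized methionine, was higher (0.87), but not without MT-F7 replicate 2 (adjusted p = 0.072). SRXN1, the sulfiredoxin that revives overoxidized peroxiredoxins, had 2 to 9 counts per library and was not tested.

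BLVRB, a flavin reductase that also reduces some forms of biliverdin, was the 1 gene of 14 in the superoxide, peroxide, heme and quinone list that passed. Over all tested genes, 23.2% passed in either direction. BLVRB fell from 141 ± 23.2 to 76.4 ± 6.44 CPM (log2 fold change -0.88, edgeR adjusted p = 0.0018). BLVRA, the reductase that takes the biliverdin made by heme oxygenase, was at 63.7 ± 7.98 CPM in MC-F7 and 58.1 ± 2.65 CPM in MT-F7 and did not pass (log2 fold change -0.13, edgeR adjusted p = 0.56). The constitutive heme oxygenase HMOX2 did not pass (0.34, edgeR adjusted p = 0.18), nor did SOD2 (-0.13), catalase (CAT, 0.11) or the ferritin chains FTH1 (0.17) and FTL (0.12), given as log2 fold changes.

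Among the genes that control NRF2, 2 of 13 were lower and none was higher, beside 11.3% lower and 11.9% higher over all tested genes. NFE2L2 lay just outside the threshold, with 42.3, 46.7 and 52.7 CPM in MC-F7 and 36.4, 35.8 and 31.3 CPM in MT-F7. Its groups did not overlap, and its log2 fold change of -0.45 had an edgeR adjusted p of 0.0502. It passed in DESeq2 (adjusted p = 0.036), with the replicate number as a block (0.012) and without MC-F7 replicate 1 (0.046). KEAP1 was at 89.2 ± 9.59 and 81.7 ± 5.87 CPM (log2 fold change -0.13), and BACH1, a repressor of HMOX1, at 2.91 ± 1.25 and 4.25 ± 0.731 CPM (0.54, edgeR adjusted p = 0.26). The 2 lower genes were NFE2L3, a relative of NFE2L2 (-0.86, edgeR adjusted p = 0.0027), and DPP3, a peptidase that binds KEAP1 (-0.49, edgeR adjusted p = 0.038), which passed in 1 of the 6 fits without 1 library.

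Of 19 further tested genes known as NRF2 targets, 7 were lower and 1 was higher, beside 11.3% lower and 11.9% higher over all tested genes. The 4 largest falls were those of CBR3, a carbonyl reductase (log2 fold change -1.61), AKR1A1, an aldehyde reductase (-1.36), ABCB6, a porphyrin transporter (-1.03), and PIR, an iron-binding nuclear protein (-1.02). OSGIN1, a growth inhibitor induced by oxidative stress, was higher (log2 fold change 0.76), and the call was lost without MC-F7 replicate 1 and without MC-F7 replicate 2 (adjusted p = 0.051 and 0.067). The median of the list's log2 fold changes was -0.28.

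**Figure D5:**
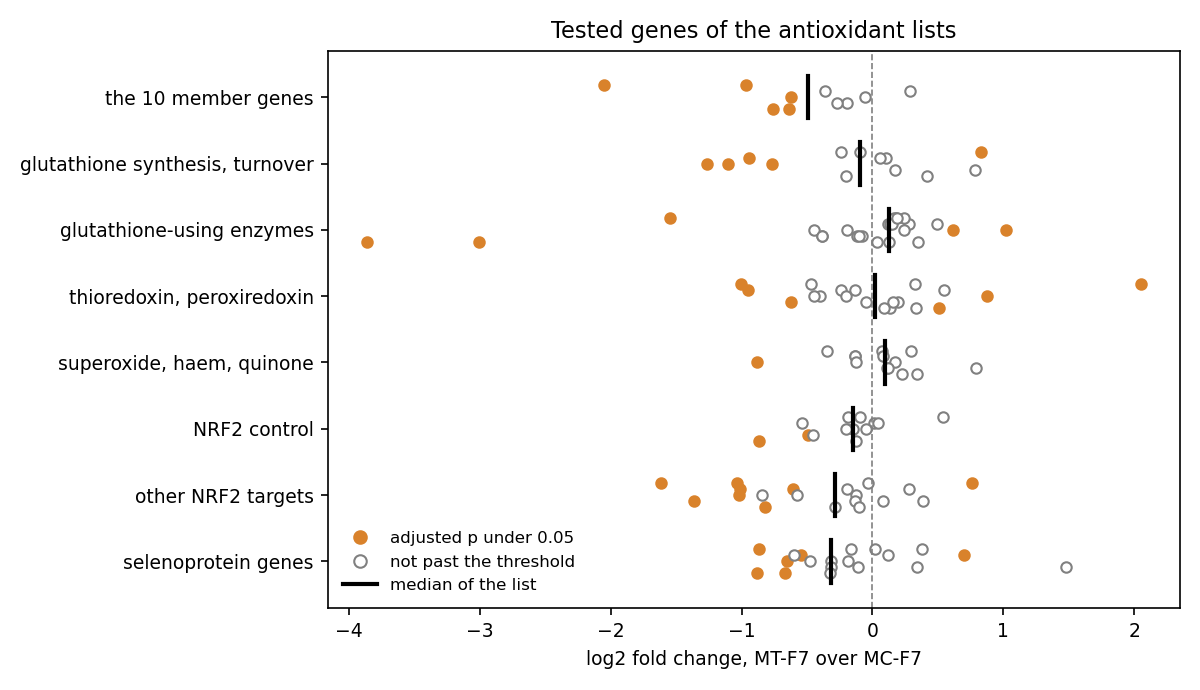
Log2 fold change of MT-F7 over MC-F7 for every tested gene of the 10 and of the 7 neighbouring lists; filled points had an adjusted p under 0.05, and bars mark the median of each list. The median of the 10 genes is -0.49, while the medians of the 7 other lists lie between -0.31 and 0.12.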

How the data were processed

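RNA of 6 libraries was examined, 3 of MC-F7 and 3 of MT-F7. Per the study's methods and the submitters' processing notes, reads were aligned with HISAT2 2.0.5 to the Ensembl Bos taurus genome and counted with featureCounts 1.5.0-p3; the genome build and the strand setting are not given in the sources used here, so no coordinates are printed and overlapping genes cannot be told apart. The authors deposited raw counts per Entrez gene and a second table that they call TPM. Its columns add up to 155595 to 165666, and for each of the 10 genes TPM divided by count was the same in all libraries. Entrez identifiers were paired with symbols by a RefSeq table (19074 of 19163 matched).

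Genes were kept by filterByExpr (minimum count 10, total 15), normalized by TMM (factors 0.971 to 1.04) and tested by edgeR 4.0.16 (quasi-likelihood, two-sided, Benjamini-Hochberg over 13001 genes, threshold 0.05) in R 4.3.3. CPM values carry the TMM factors, and standard errors and 95% intervals come from the same fit. Alternatives used DESeq2 1.42.0 and limma 3.58.1. In TPM tests the first line of an Ensembl identifier was kept, and symbols on several identifiers (GSTM1, GSTP1) were left out. Ratios were compared by exact permutation over libraries. The edgeR, DESeq2 and limma fits, though not every alternative setting, were tested on simulated counts with known changes. The ratios and the other summaries were not. The 10 genes, the lists and the tests were chosen with earlier results of these data known. Named besides the 10 were at most 4 called genes per list and direction (mean of at least 1 CPM), 9 regulators and partners set by name, and the 5 genes most like HMOX1; HMOX2, BLVRA, GSS, FTH1, FTL, PRDX2, PRDX3, PRDX5 and PRDX6 were added after their values were seen.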

Additional observations from a re-analysis of the deposited data

How the results depend on the processing

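Low counts limit NQO1, SLC7A11 and SRXN1, and 3 libraries a group limit the rest. The 18 alternatives were 6 fits without 1 library and 12 others. The number of lower genes among the 10 (5) was 2 in limma on log2(TPM + 1), 2 with the pseudocount 0.1, 3 with a mean TPM of at least 1, 3 with TPM rescaled, and 3 to 5 without 1 library; none was higher in any setting. In the same 4 limma fits the lower pathway genes (25) numbered 14, 15, 15 and 16 and the lower genes overall (1463) numbered 820, 845, 451 and 960. With a mean TPM of at least 1 there were 5 higher pathway genes (8) and 948 higher genes overall (1553). Without 1 library these numbers ran from 18 to 27, 895 to 1567, 5 to 9 and 1019 to 1592. Without replicate 3 of both groups 13 pathway genes were higher. The replicate block gave 15 higher pathway genes and 2301 lower and 2373 higher genes overall. Deviations of same-numbered libraries from the group means correlated at 0.19, 0.089 and 0.54 for replicates 1, 2 and 3. MC-F7 replicates 1 and 2 correlated best with other numbers. MC-F7 replicate 3 correlated best with MT-F7 replicate 3, and at -0.34 and -0.44 with MT-F7 replicates 1 and 2. Whether equal numbers mark a pairing was therefore not settled, and the block changed no call among the 10.

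The median log2 fold change of the 10 was -0.26 in limma on log2(TPM + 1), -0.35 with the pseudocount 0.1 and -0.38 with TPM rescaled, and -0.59 to -0.39 without 1 library. Calls were lost at log2 fold changes of -0.49, -0.50, -0.49 and -0.55 for PRDX1 and -0.39, -0.49, -0.39 and -0.53 for GSR in the 4 limma fits, and of -0.41 and -0.60 for TXNRD1 in the first 2. Without 1 library PRDX1 ran from -0.73 to -0.50, GSR from -0.79 to -0.54, TXNRD1 from -0.86 to -0.69, GPX1 from -0.17 to 0.048 and NQO1 from -0.40 to 0.64. Directions turned only for genes that were not called. In the limma fits GPX1 was at 0.071, 0.080, 0.071 and 0.031, and in the first 3 of them TXN was at 0.0047, 0.0048 and 0.0047, SOD2 at 0.015, 0.021 and 0.015 and KEAP1 at 0.0052, 0.0066 and 0.0052. These 3 fits used the TPM as deposited. For the 10 genes such values were counts times a constant, so differences in library depth stayed in them. With TPM rescaled TXN was at -0.045, SOD2 at -0.028 and KEAP1 at -0.042, while GPX1 kept its turned direction. Without 1 library TXN ran from -0.25 to 0.016, SOD2 from -0.35 to 0.13 (0.064 without MT-F7 replicate 3) and CAT from -0.051 (without MT-F7 replicate 2) and -0.041 to 0.29. The ratio of GCLC to GCLM kept its direction without any 1 library (-0.72 to -0.50). Of all values of named genes under alternatives, 690 kept direction and side of the threshold, 80 missed it, 3 newly passed and 20 turned; the cause was not tested.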

Other observations

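Selenocysteine enters GPX1, GPX4 and TXNRD1 through a shared set of factors. Of 19 tested genes of this machinery and of other selenoproteins, 5 were lower and 1 was higher in MT-F7, beside 11.3% lower and 11.9% higher over all tested genes, and the median log2 fold change was -0.31. EEFSEC, the elongation factor that carries selenocysteine to the ribosome, fell from 48.4 ± 8.98 to 26.6 ± 2.07 CPM (log2 fold change -0.86, edgeR adjusted p = 0.0029). SCLY, which recovers selenium from selenocysteine, fell from 24.9 ± 3.21 to 13.5 ± 1.46 CPM (log2 fold change -0.88, edgeR adjusted p = 0.0027). SELENOF and SELENOS, proteins of the endoplasmic reticulum, had log2 fold changes of -0.65 and -0.67 and each passed in 2 of the 6 fits without 1 library, and for SELENOS the groups overlapped. SELENON, a selenoprotein of the same compartment, rose from 74.8 ± 7.49 to 122 ± 14.3 CPM (log2 fold change 0.70, edgeR adjusted p = 0.0054).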
